A study of Homo sapiens with 4 samples.

Results

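JUND, EGR1 and FOSL1 are counted here among the immediate early genes. Their mRNA was measured in human melanoma cells 16 h after electric pulses. No earlier time was sampled, so a change that had ended before 16 h could not be seen. The 3 genes were taken by the symbols in the array's annotation, which pairs each of them with 1 oligonucleotide, so that 3 of the 3048 oligonucleotides on the array (3 of 1892 annotated genes) are described here. All 3 were measured on all 4 arrays, with every spot kept. SK-MEL28, an established line of human malignant melanoma, was exposed as a suspension of cells to ECT pulses, the kind used in electrochemotherapy (8 pulses, each of 100 μs, 1300 V/cm), or to the longer and weaker EGT pulses used in electrogene therapy (8 pulses, each of 5 ms, 600 V/cm). Cells of the same suspension that received no pulses were the control on every array. Each pulse type had 2 arrays, on which the exposed sample was labelled with Cy5 and the untreated sample with Cy3. Cisplatin appears in the source labels of 3 arrays, ECT array 2 and the EGT pair, but in no account of how these cells were treated. No array had the dyes swapped, so an effect of the dye on an oligonucleotide and a response to the pulses cannot be told apart. No source states that arrays of one pulse type came from different cultures, so the errors and p-values measure the spread between arrays, which may be technical. RNA came from whole cultures, so a change in all cells and a change in the share of cells expressing a gene cannot be told apart.

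Immediate early genes in the strict sense, EGR1 among them, are transcribed within minutes of serum, growth factors or stress, without new protein synthesis. Signals through MAP kinases reach factors already bound at their promoters, among them CREB or ATF proteins at the cAMP response element. Others are SRF and its ETS partners at the serum response element, in which SRF binds the CArG box. Many products of immediate early genes are transcription factors that switch on later genes. JUND and FOSL1 (also called FRA1) are basic leucine zipper proteins that pair in the AP-1 dimer. JUND is the Jun protein present in many resting cells, and FOSL1 is the Fos protein that stays high where ERK signalling lasts, as in melanoma lines with activated BRAF. EGR1 is a zinc finger factor that binds GC-rich sites.

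The promoters of JUND and EGR1 are shown, searched for sites that include those through which this response is known to start. RefSeq promoter windows (GRCh38.p14, 250 bases before the start site and 50 bases after it) were matched by symbol for JUND and EGR1 and not for FOSL1. JUND lies on chromosome 19 from 18279694 to 18281622, EGR1 on chromosome 5 from 138465479 to 138469303, and FOSL1 on chromosome 11 from 65892049 to 65900545. The windows are chr19:18281573-18281872 on the minus strand and chr5:138465229-138465528 on the plus strand. Capitals mark matches to TGANTCA (the AP-1 site), TGACGTCA (the cAMP response element), GCGNGGGCG (the EGR1 site) and the CArG box, searched on both strands.
JUND: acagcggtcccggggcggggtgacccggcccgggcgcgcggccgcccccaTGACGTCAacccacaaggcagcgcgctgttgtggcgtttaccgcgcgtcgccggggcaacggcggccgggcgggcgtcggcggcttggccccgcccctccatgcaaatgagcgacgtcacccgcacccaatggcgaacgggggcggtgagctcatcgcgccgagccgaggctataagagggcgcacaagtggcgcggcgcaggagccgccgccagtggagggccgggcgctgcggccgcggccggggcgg
EGR1: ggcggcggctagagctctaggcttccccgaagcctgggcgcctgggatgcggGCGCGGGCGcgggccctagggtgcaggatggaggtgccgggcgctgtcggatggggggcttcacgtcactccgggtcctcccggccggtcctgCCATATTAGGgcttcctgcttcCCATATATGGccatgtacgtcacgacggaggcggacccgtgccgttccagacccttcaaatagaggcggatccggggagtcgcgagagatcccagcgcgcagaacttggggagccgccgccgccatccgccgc
The JUND window held TGACGTCA once, from -200 to -193 relative to the start site. The EGR1 window held a CArG box at -105 to -96, another at -83 to -74, and one match to GCGNGGGCG at -198 to -190. TGANTCA was in neither window. Of 35116 promoters of the same length, 1.85% held TGACGTCA, 1.29% a CArG box, 9.43% GCGNGGGCG and 7.71% TGANTCA. No 2 of these 4 patterns overlapped in either window, and a match describes letters, not a bound factor.

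Of the 12788 spots on an array, 37.3% to 47.7% were kept, and 1208 to 1537 oligonucleotides were measured per array. The median Cy5 signal was 1.64 to 2.20 times the local background, and the median Cy3 signal 2.21 to 5.38 times. On EGT array 1, 4 spots with a local background over 1000 were left out before the background fit, because they disturbed it. With them the log2 ratios of that array had a median absolute deviation of 0.026 and without them 0.177, against 0.191 to 0.238 on the other arrays. Across oligonucleotides the correlation between arrays was 0.40 within ECT and 0.48 within EGT, but 0.74 for ECT array 1 with EGT array 2. The cause of this resemblance was not tested. A fit with the array numbers crossed between pulse types is given at the end, as counts of oligonucleotides only. Of the melanocyte markers, 7 of 7 oligonucleotides were measured on all 4 arrays, MITF, TYR, MLANA and SOX10 among them. Their summed Cy3 signal was 464 to 929 times background, most of it from CD63 (272 to 494). Markers of other cell types were also measured, with sums of 151 to 253 times background for lymphoid markers (3 of 4 oligonucleotides), 3367 to 4606 for epithelial markers (5 of 5) and 572.5 to 1111 for fibroblast and endothelial markers (5 of 8). A signal above background thus did not set the melanocytic list apart.

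JUND had the highest log2 ratio of the 3 genes on every array. In untreated cells the median Cy3 intensity of its 4 spots was 196 scanner units on ECT array 1, 149 on ECT array 2, 218 on EGT array 1 and 99 on EGT array 2. In exposed cells the median Cy5 intensity was, in the same order, 91, 130, 114.5 and 117.5. The spots were thus dim but clear of the background, at 3.79 to 20.3 times its level. Over all kept spots Cy5 was the dimmer dye on each array, so these raw values do not give the direction of a change. On ECT array 1, for example, the background-corrected JUND ratio was -0.88 on the log2 scale, whereas the fitted ratio of spots of that brightness was -1.21.

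**Figure D1:**
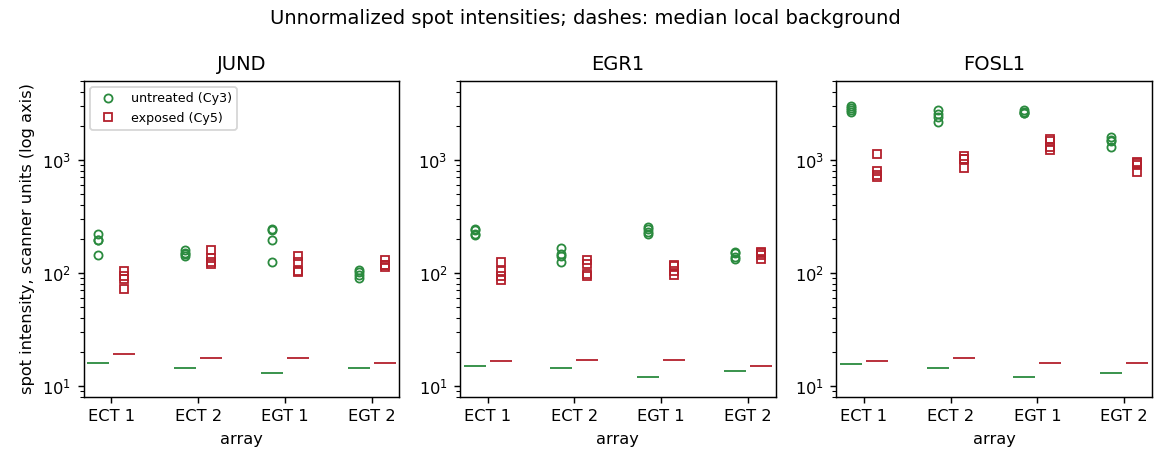
Spot intensities before normalization (log axis, scanner units) for JUND, EGR1 and FOSL1, with 4 spots per dye on each of the 4 arrays, circles for untreated cells (Cy3), squares for exposed cells (Cy5) and dashes for the median local background. All spots lie above background, and on ECT array 1 every Cy5 spot of a gene lies below all of its Cy3 spots.

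After this dye trend was removed, the JUND log2 ratio (exposed/untreated) was 0.36 on ECT array 1, 0.45 on ECT array 2, 0.36 on EGT array 1 and 0.44 on EGT array 2. The ratios of both pulse types overlapped, and all 4 lay 1.28-fold to 1.36-fold above the fitted dye trend. Of the 16 spots, 14 were above 0. The other 2 were on ECT array 1 (-0.07) and EGT array 1 (-0.06). With this processing the arrays differed by at most 0.09, against a median range of 0.33 over the 1164 oligonucleotides measured on all 4 arrays. Of these, 19 had a smaller range. On every array JUND was, with this processing, below the 1.5-fold threshold of the study's methods (0.585 on the log2 scale). A ratio above 0 on all 4 arrays was itself common, at 209 of 1164 oligonucleotides (18%), and 8 oligonucleotides, JUND included, were at or above its lowest ratio on every array. In the authors' normalized values JUND ran from 0.37 to 0.62 over the arrays, with EGT array 2 above the 1.5-fold threshold. With plain subtraction of the background both arrays numbered 2 were above it (0.67 for ECT and 0.70 for EGT). With the background fitted on all spots the ratios ran from 0.05 to 0.45.

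**Figure D2:**
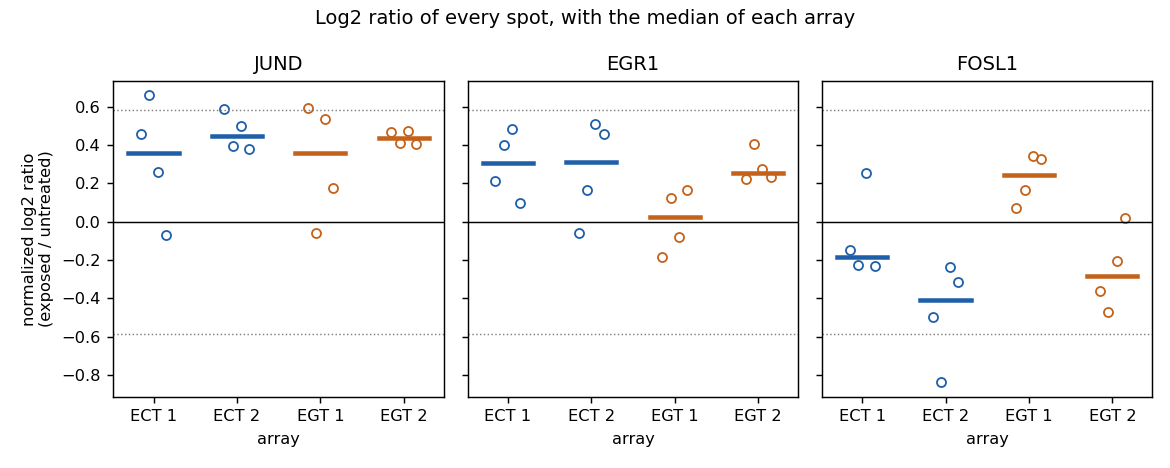
Normalized log2 ratio (exposed/untreated) of each of the 4 spots on each array for JUND, EGR1 and FOSL1, with ECT arrays in blue, EGT arrays in orange, thick lines at the array medians and dotted lines at 1.5-fold. The JUND medians lie between 0.36 and 0.45, the EGR1 medians between 0.02 and 0.31, and FOSL1 is above 0 on EGT array 1 alone.

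The mean JUND ratio was 0.40 ± 0.06 (SD, n = 2) after ECT pulses and 0.40 ± 0.06 (SD, n = 2) after EGT pulses. Over all 4 arrays it was 0.40 ± 0.05 (SD, n = 4), or 1.32-fold, with a standard error of 0.07 and a 95% interval of 0.23 to 0.57 from limma. Its adjusted p over the 4 arrays was 0.0541 (unadjusted p = 0.00102), just above the threshold of 0.05. That threshold was passed by 8 of 1164 oligonucleotides (0.687%), 5 higher (0.43%) and 3 lower (0.258%), whereas 327 (28.1%) had an unadjusted p under 0.05. By mean ratio JUND stood 32nd from the top of the 1164, and by limma's p-value 16th. It did not pass for a single pulse type either (adjusted p = 0.198 for ECT and 0.225 for EGT from limma). With limma 0 of 1176 oligonucleotides (0%) passed for ECT, 193 (16.4%) at an unadjusted p, and 0 of 1327 (0%) for EGT, 208 (15.7%) at an unadjusted p.

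The size of the JUND ratio and its call depended on the processing. In the authors' normalized values the ECT arrays had JUND at 0.43 and 0.58 and the EGT arrays at 0.37 and 0.62, with a mean of 0.50 (adjusted p = 0.0396 from limma). The offset of 50 added to both channels in the background correction draws the ratios of dim spots such as these towards 0. With an offset of 0 the mean was 0.57 (adjusted p = 0.0477 from limma), and with plain subtraction of the background 0.60 (adjusted p = 0.0512). Where the background was fitted on all spots, JUND on EGT array 1 was at 0.05 and its mean at 0.32 (adjusted p = 0.181 from limma). Over 18 alternatives the mean ranged from 0.32 to 0.60 and was above 0 in each. Its adjusted p from limma was under 0.05 in 7 of them. The smallest, 0.00869, came from a replicate block by array number, although no source states that these numbers pair the arrays.

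EGR1 was slightly above 0 on 3 arrays and at 0 within its spot spread on the other. Its median intensities in untreated cells (Cy3) were, over ECT arrays 1 and 2 and then EGT arrays 1 and 2, 230.5, 145, 238.5 and 144.5. In exposed cells (Cy5) they were 99, 108.5, 109.5 and 147.5 in that order. All 16 spots were at least 4.90 times the background. The log2 ratio was 0.31 on both ECT arrays, 0.02 on EGT array 1 and 0.26 on EGT array 2. On EGT array 1, 2 spots were above 0 and 2 below, from -0.18 to 0.17, and on the other arrays all spots but 1 were above 0. EGT array 1 was thus the low one, and its sign depended on the processing, at 0.00 with the background fitted on all spots and at -0.09 with median centring in place of loess. The other 3 arrays lay close together. Ratios above 0 on both ECT arrays were found for 350 of 1176 oligonucleotides (29.8%).

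The mean EGR1 ratio was 0.31 ± 0.003 (SD, n = 2) after ECT pulses, or 1.24-fold, and 0.14 ± 0.16 (SD, n = 2) after EGT pulses. Over the 4 arrays it was 0.22 ± 0.14 (SD, n = 4), with a 95% interval of 0.04 to 0.40 from limma. The adjusted p from limma was 0.234 for ECT, 0.536 for EGT and 0.127 over both, and EGR1 passed in none of these. Its unadjusted p over the 4 arrays was 0.0227, at a threshold that 28.1% of oligonucleotides passed. In none of 18 alternatives was the adjusted p under 0.05 (0.118 to 0.521), and the mean stayed between 0.17 and 0.33.

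FOSL1 was below 0 on 3 arrays and above 0 on EGT array 1. It was far brighter than its background, at 40.8 to 242 times, with median intensities in untreated cells (Cy3) of 2811.5, 2488.5, 2639.5 and 1495.5 in the same order of arrays. In exposed cells (Cy5) they were 770, 1019.5, 1379.5 and 924. Raw Cy5 was thus the lower on each array, as it was over all kept spots. The log2 ratio after loess was -0.19 on ECT array 1, -0.41 on ECT array 2, 0.25 on EGT array 1 and -0.28 on EGT array 2. Every spot on EGT array 1 was above 0, from 0.07 to 0.34, all 4 on ECT array 2 were below, from -0.84 to -0.24, and the other 2 arrays had 1 spot each above 0. The range over the arrays, 0.65, was wider than that of 1023 of the 1164 oligonucleotides measured on all 4. The pattern of FOSL1, below 0 on all arrays but EGT array 1, was shared by 79 of the 1164 (6.79%), and 405 of 1176 (34.4%) were below 0 on both ECT arrays. With the background fitted on all spots, FOSL1 on EGT array 1 was at 0.03.

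The mean FOSL1 ratio was -0.30 ± 0.16 (SD, n = 2) after ECT pulses and -0.02 ± 0.37 (SD, n = 2) after EGT pulses. The 2 EGT arrays lay on either side of 0, and their mean describes neither of them. Over the 4 arrays the mean was -0.16 ± 0.28 (SD, n = 4), with a 95% interval of -0.41 to 0.10 and an adjusted p of 0.368 from limma. It was -0.29 without EGT array 1 and -0.03 without EGT array 2 (adjusted p = 0.236 and 0.929 from limma). For ECT alone the adjusted p was 0.365 and for EGT 0.971. FOSL1 depended on the dye normalization. The fitted dye trend at its brightness was -1.63 on ECT array 1, where the median ratio of all kept spots was -1.23. With each array centred on its median in place of loess, FOSL1 was below 0 on all 4 arrays (-0.58 and -0.66 for ECT, -0.07 and -0.50 for EGT), with a mean of -0.45 and an adjusted p of 0.0139 from limma. The JUND mean under the same centring was 0.36. Under that centring 401 of 1164 oligonucleotides passed, against 8 with loess.

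**Figure D3:**
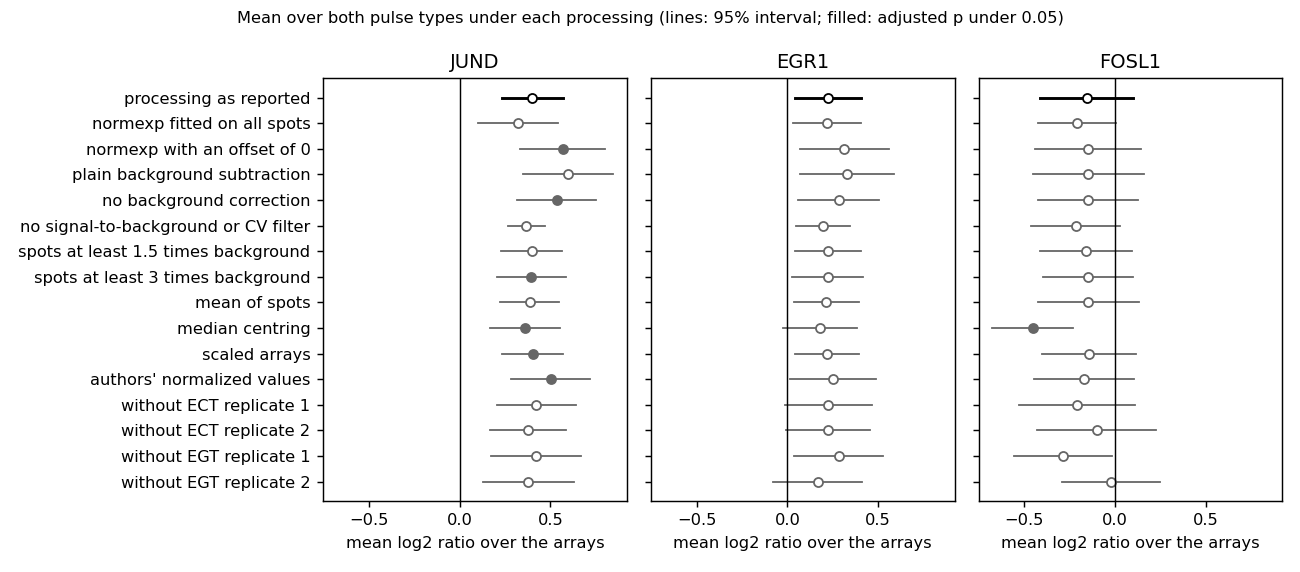
Mean log2 ratio over both pulse types for JUND, EGR1 and FOSL1 (x axis) under the processing as reported and 15 alternatives (y axis), with lines for limma's 95% intervals and filled points for an adjusted p under 0.05. JUND is above 0 under each, from 0.32 to 0.60, and FOSL1 falls to -0.45 with median centring.

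The pulse types were compared through their ratios to untreated cells, since no array held both. JUND did not differ detectably, with an ECT minus EGT difference of 0.004 and a 95% interval of -0.33 to 0.34 from limma. The difference was 0.17 for EGR1 (-0.19 to 0.53) and -0.28 for FOSL1 (-0.79 to 0.23), and both depended on the EGT arrays. Without EGT array 1 the differences were 0.05 and -0.01, and without EGT array 2 they were 0.28 and -0.54 (adjusted p = 0.993 for FOSL1 from limma). The adjusted p from limma was 0.998 for JUND and 0.988 for EGR1 and for FOSL1. With limma 0 of 1164 oligonucleotides (0%) passed in this contrast and 31 (2.66%) had an unadjusted p under 0.05. The 1.5-fold rule of the study's methods was met by none of the 3 genes for either pulse type, and by 11 of 1176 oligonucleotides for ECT (4 higher, 0.34%, and 7 lower, 0.595%) and 8 of 1327 for EGT (2 higher, 0.151%, and 6 lower, 0.452%).

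The oligonucleotides whose ratios lay nearest to each gene over the 4 arrays were found by the root mean square difference among 999 others with a symbol. All were picked as the smallest differences, so they lie below the median by construction. How close the nearest of other oligonucleotides lie was not tested. Nearest to JUND were FASTK, a kinase-like protein of mitochondria (0.06), ACTA2, the smooth muscle actin (0.10), and TRAM1, a protein of the translocation channel of the endoplasmic reticulum (0.10), against a median difference of 0.44. Nearest to EGR1 were CTSL, a lysosomal protease (0.03), PTK2, the focal adhesion kinase (0.04), and IL1RN, which blocks the receptor of interleukin 1 (0.05), against a median of 0.31. Nearest to FOSL1 were PPP2R5C, a regulatory subunit of the phosphatase PP2A (0.08), KDR, a receptor of VEGF (0.10), and the growth factor HGF (0.11), against a median of 0.35. The KDR oligonucleotide, picked for this closeness, was at -0.16 and -0.21 for ECT and at 0.28 and -0.33 for EGT. Another KDR oligonucleotide was also measured on all 4 arrays and was not among the nearest. It was dimmer in Cy3, at 4.41 to 10.2 times background against 92.6 to 174.

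Of the closest relatives, JUN, the founding AP-1 protein, and EGR3 each had 1 oligonucleotide, and 0 of their spots were kept on any array. Their median signals were 1.45 to 4.01 and 1.11 to 2.66 times background. FOS, FOSB, FOSL2, JUNB, EGR2 and EGR4 were not paired with an oligonucleotide in the annotation used here. Of 10 genes of AP-1, ATF, CREB and related leucine zipper proteins on the array, 2 were measured on all 4 arrays, and neither passed in any comparison. Over both pulse types only 8 of 1164 oligonucleotides (0.687%) passed. A lack of calls in this list and those below thus says little about them. ATF4, the main transcription factor of the integrated stress response, was at -0.07 and 0.01 for ECT and at -0.45 and 0.01 for EGT. ATF5, a relative of ATF4, was at 0.19 and -0.10 and at -0.35 and 0.04. Both were lowest on EGT array 1.

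Of 17 other immediate early genes on the array, 6 were measured on all 4 arrays, 5 on some and 6 on none, MYC, MCL1 and DUSP1 among the last. The median of the 6 was 0.02, with 3 above 0 and 3 below. In limma 0 passed in either direction over both pulse types, against 8 of all 1164 oligonucleotides (0.687%). At an unadjusted p under 0.05 from limma 1 was higher and 0 lower, against 28.1% of all. DUSP5, a phosphatase that inactivates ERK in the nucleus, was at 0.23 and 0.44 on the ECT arrays and at 0.13 on both EGT arrays (mean 0.23, adjusted p = 0.114 from limma). SRF, the factor that binds the CArG box, was at 0.30 and -0.07 and at 0.02 and -0.02. SGK1, a serum-induced kinase, ranged from -0.69 to 0.30, and TNFAIP3, an inhibitor of NF-κB signalling, from -0.27 to 0.30.

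Upstream of these genes, 8 of 20 oligonucleotides of MAP kinase cascades and ETS partners of SRF were measured on all 4 arrays. Their median was 0.06, with 5 above 0 and 3 below. Over both pulse types limma called 0 higher and 0 lower, against 0.687% of all 1164 oligonucleotides. At an unadjusted p under 0.05 from limma 1 was higher and 0 lower, against 28.1% of all. ELK1, an ETS partner of SRF that ERK activates, was above 0 on every array. It was at 0.81 and 0.23 for ECT and at 0.08 and 0.22 for EGT (mean 0.34, adjusted p = 0.12 from limma). MAP3K3, a kinase upstream of ERK5, was between 0.09 and 0.20. MAP2K4, which activates JNK, was at -0.50 and 0.02 and at -0.03 and -0.38, and the p38 kinase MAPK13 was below 0 on every array, from -0.23 to -0.07. Of 7 cofactors, 4 were measured on all 4 arrays, with a median of 0.12. Over both pulse types limma gave 0 calls, and 0 at an unadjusted p under 0.05, beside the same shares of all oligonucleotides. NAB2, which represses EGR1 and is itself induced by it, was at 0.04 and 0.17 and at 0.11 and 0.13, and COPS5, which binds Jun proteins, was between -0.14 and -0.03. RUNX1 and SMAD3, which act with AP-1 at shared sites, had means of 0.16 and 0.13.

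Among known AP-1 target genes, 10 of 20 oligonucleotides (8 genes) were measured on all 4 arrays, 5 above 0 and 5 below. Their median was 0.03, with 0 calls by limma over both pulse types, against 0.687% of all 1164 oligonucleotides. At an unadjusted p under 0.05 from limma 3 were higher and 3 lower, against 28.1% of all. The lowest were ITGB4, an integrin chain, at -0.86 and -0.43 and at -0.36 and -0.90 (mean -0.64), HMGA1, a chromatin protein, at -0.36 and -0.68 and at -0.53 and -0.31 (mean -0.47), and NQO1, the quinone reductase, at -0.90 and -0.60 and at -0.03 and -0.22 (mean -0.44). Each of these means had an adjusted p of 0.0551 from limma, close to that of JUND, and NQO1 was at least 1.5-fold lower on both ECT arrays. CCND1, cyclin D1, had the highest mean of the list, 0.38, with arrays from -0.15 to 0.86. Of known EGR1 targets, 6 of 8 were measured on all 4 arrays, 3 above 0 and 3 below, with a median of 0.003. Over both pulse types limma gave 0 calls. At an unadjusted p under 0.05 from limma 0 were higher and 2 lower, beside the same shares of all oligonucleotides. TP73, a relative of p53, was below 0 on every array (mean -0.38, adjusted p = 0.0566 from limma), SOD1, the cytosolic superoxide dismutase, had a mean of -0.34, and PDGFB ranged from -0.30 to 0.64. The median of all 1164 oligonucleotides was -0.01, and 47.8% of them were above 0.

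**Figure D4:**
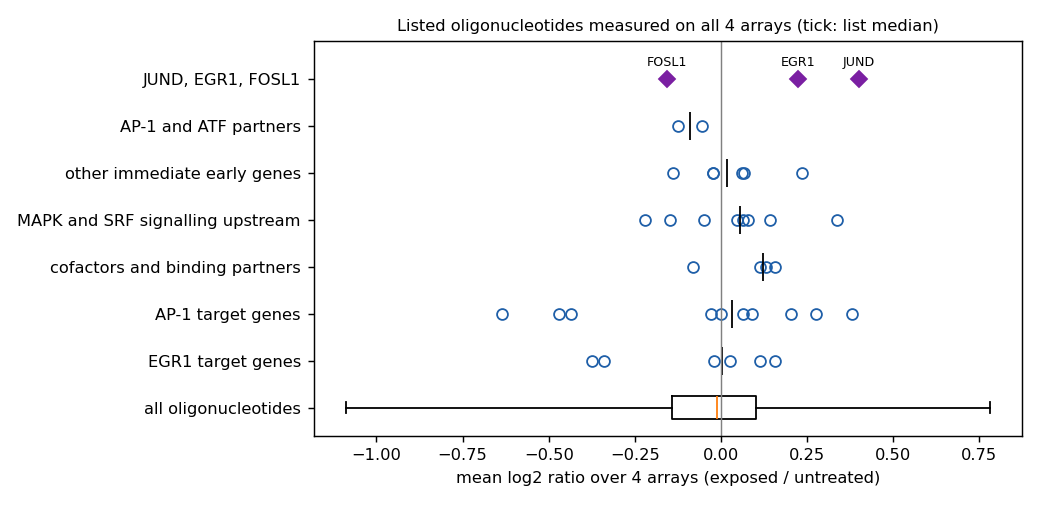
Mean log2 ratio over the 4 arrays (x axis) of JUND, EGR1 and FOSL1 (diamonds), of the oligonucleotides of each gene list measured on all 4 arrays (circles, with a tick at the list median) and of all 1164 oligonucleotides (box for the quartiles, whiskers to the extremes). JUND at 0.40 lies above every oligonucleotide of the 6 lists, the highest of which is CCND1 at 0.38.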

How the data were processed

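The members and the gene lists were chosen with earlier results of these data known. Per the file headers and the article's methods, the deposited spot files hold median intensities and local backgrounds in scanner units, which the authors neither subtracted nor normalized. The deposited table of normalized values holds log2 ratios (exposed/untreated) that the authors made by removing bad spots, a LOWESS fit and the median of the spots, and it served as an alternative. The second channel of the spot files was taken as Cy5, since its log2 ratio correlated positively with that table on each array (0.91 to 0.96 after processing).

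In R 4.3.3 with limma 3.58.1, spots with a local background over 1000 were left out, since such spots were known from an earlier analysis of these files to disturb the fit on EGT array 1. Background was corrected by normexp with an offset of 50. Spots were kept at 2 times background or more and up to 65000 in both channels, with a background SD of at most 0.3 of the intensity. Loess (span 0.3, 4 iterations) was fitted on kept spots, and the median of at least 2 was taken. The ECT and EGT means, their mean and their difference were tested in 1 limma fit over the 4 arrays (lmFit, eBayes), with Benjamini-Hochberg adjustment over all oligonucleotides tested. The number of arrays limits the precision. The steps were tested on simulated data.

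Genes named with ratios are the 3 members, their close relatives, any list gene past the 1.5-fold rule, the genes of each list farthest from 0 (at most 4 a list), and the 3 nearest oligonucleotides by ratio. The markers named and 3 genes measured on no array (MYC, MCL1 and DUSP1) fall outside this rule and were picked with their values in view. Symbols were checked against RefSeq (GRCh38.p14), and 0 changed. The probe sequences were not used here.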

Additional observations from a re-analysis of the deposited data

How the results depend on the processing

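The mean ratios of JUND and EGR1 over both pulse types were above 0 and that of FOSL1 below 0 under all 18 alternatives. JUND passed in 7 of them, the replicate block by array number included, EGR1 in none and FOSL1 in 1. The JUND mean over both pulse types (0.40, adjusted p = 0.0541 from limma) passed with no background correction (0.535), spots at least 3 times background (0.395), median centring (0.362), arrays scaled to equal spread (0.403), the authors' values (0.501) and an offset of 0 (0.568, an alternative chosen after seeing the data). Leaving out 1 array, with the lone array assumed to vary like the other pair, gave 0.378 to 0.422 (adjusted p 0.0594 to 0.35 from limma). The JUND difference between pulse types, 0.004, changed sign with plain subtraction (-0.00300), no background correction (-0.00286), 3 times background (-0.0107), scaled arrays (-0.0309) and an offset of 0 (-0.00225), ranged from -0.0402 to 0.0476 with 1 array left out, and was 0.159 with the background fitted on all spots. With median centring the FOSL1 mean passed for ECT (-0.622) and over both pulse types (-0.454). The FOSL1 mean for EGT was 0.0015 with scaled arrays, and ranged from -0.282 to 0.245 with 1 array left out, positive without EGT array 2. Its mean over both pulse types then ranged from -0.289 to -0.0252. The cause of these changes was not tested.

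Over both pulse types 8 oligonucleotides passed limma's adjusted p. The count was 0 with the background fitted on all spots and with no signal filter, 5 with the mean of spots, 54 with an offset of 0, 55 with no background correction, 60 in the authors' values, 69 at 3 times background, 76 with scaled arrays, 401 with median centring and 0 to 79 with 1 array left out, the 79 without ECT array 2. For ECT and EGT the count was 0, but 117 and 92 with median centring, and 9 for EGT in the authors' values. The 1.5-fold rule was met by 11 for ECT, 8 for EGT and 3 on all arrays. With plain subtraction these counts were 27, 22 and 9, with no background correction 17, 13 and 5, with median centring 33, 32 and 8 and with an offset of 0 they were 23, 16 and 6. The authors' values gave 17 for ECT and 14 for EGT, and the background fit on all spots 2 for EGT and 0 on all arrays. With 1 array left out the counts were 11 to 133, 8 to 72 and 3 to 7. None of the 3 genes met the rule on every array under any alternative with both arrays of a pulse type.

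The array numbers are shared between pulse types, but no source states that they pair the arrays. Deviations of same-numbered arrays from their group means correlated at -0.44, so across oligonucleotides these arrays did not deviate alike. That correlation cannot show whether the numbers stand for shared cultures or runs. With the number as a replicate block, 139 oligonucleotides passed over both pulse types, 70 for ECT and 38 for EGT, and the JUND mean of 0.400 had an adjusted p of 0.00869 from limma. With the numbers crossed, also chosen after seeing the data, 112 passed over both pulse types and 0 for ECT or EGT alone.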
